A study of Drosophila melanogaster with 6 samples.

Results

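Natural antisense RNAs are transcribed from the strand opposite to another gene and overlap it. Some of them are known to interfere with transcription, splicing or stability of the RNA on the other strand, and many have no described function. The wing imaginal disc is a folded sheet of larval epithelium from which the adult wing and part of the thorax form. Here the antisense RNAs expressed in the regenerating wing disc of *Drosophila melanogaster* are described. They are the genes whose symbol begins with asRNA: and whose mean over all 6 libraries was at least 1 TPM (a relative transcript level that is corrected for gene length). There were 59 of them among the 490 antisense RNAs found in the files. Members were selected on the mean level, so their levels are given as a description with no test.

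All libraries came from wing discs of larvae of the third instar that carried *salE/Pv-LHG:tub-Gal80TS* and *lexO-rpr*. The sal enhancer drives LHG in the centre of the wing disc, and LHG activates the pro-apoptotic gene *rpr*. Gal80TS represses LHG until larvae are warmed, so cell death was induced in both groups. The 3 libraries labelled control had this background alone. The 3 libraries labelled mutant were also homozygous for CR40469-KO, in which the lncRNA gene *CR40469* at the tip of the X chromosome was replaced by an mCherry cassette. The study reports that fewer adult wings regenerated in *CR40469* mutants than in controls, after a shorter expression of *rpr*. For the libraries, *rpr* was expressed for 16 h. Each library pooled many discs of unstated sex, from unstated cultures, so p-values measure only the spread between these pools. By the labels, RNA was selected for poly-A tails, and antisense RNAs without a tail are not measured. Whether the counting used the strand of the reads is not given in the sources used here. Without strand, reads from exons shared by an antisense RNA and its sense gene cannot be told apart.

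The labels did not match the level of the deleted gene. *CR40469* had 99.61, 46.44 and 82.52 TPM under the control label, and 535.93, 389.21 and 293.78 TPM under the mutant label. Its near-identical copy *CR34335* went the other way, with 3521.64, 2442.97 and 3201.91 TPM under the control label and 1938.29, 1928.63 and 1902.09 TPM under the mutant label, without overlap. *CR40469* was thus far above 1 TPM in every library of both labels. The study reports that PCR showed the absence of the locus in the mutant flies. How reads were divided between the copies was not tested. Groups are therefore called by their labels. *rpr* was at 122.67 to 143.52 TPM under the control label and at 144.06 to 189.81 TPM under the mutant label, without overlap. All 10 markers of the wing disc epithelium and all 5 of adult muscle precursors were at 1 TPM or more in every library. None of the 5 haemocyte and none of the 4 salivary gland markers reached that level in every library, and *ng1* of the salivary gland was at 0. Among the fat body markers 1 of 5 was at 1 TPM or more in every library, and among those of differentiated muscle 1 of 4. All 4 tracheal markers were at 1 TPM or more in every library, with sums of 302 to 471 TPM. The number of genes at 1 TPM or more was 7683 to 7779 per library, and the depth is unknown because TPM keep none.

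Antisense RNAs were mostly low or absent in the disc. Of the 490, 173 were listed at 0 in every library, and the 59 members made up 12.0%, against 7.31% of the 1914 genes named lncRNA: and 53.8% of the protein-coding genes. The median member had a mean of 3.53 TPM, close to 3.59 TPM for the 140 lncRNAs past the same limit and below 30.4 TPM for the protein-coding genes past it. Only 9 members had a mean of 10 TPM or more, 10 were between 5 and 10 TPM, 26 between 2 and 5 TPM, and 14 between 1 and 2 TPM. The 3 highest members held 31.6% of the summed level of all 59. That sum was 393 to 411 TPM under the control label and 385 to 403 TPM under the mutant label. In 51 of the 59, every single library was at 1 TPM or more. Just inside the limit stood CR46107 with a mean of 1.09 TPM, CR44960 with 1.05 TPM and CR45895 with 1.04 TPM. Just outside it were CR44340 at 0.987 TPM, CR44367 at 0.970 TPM and CR45501 at 0.947 TPM.

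**Figure D1:**
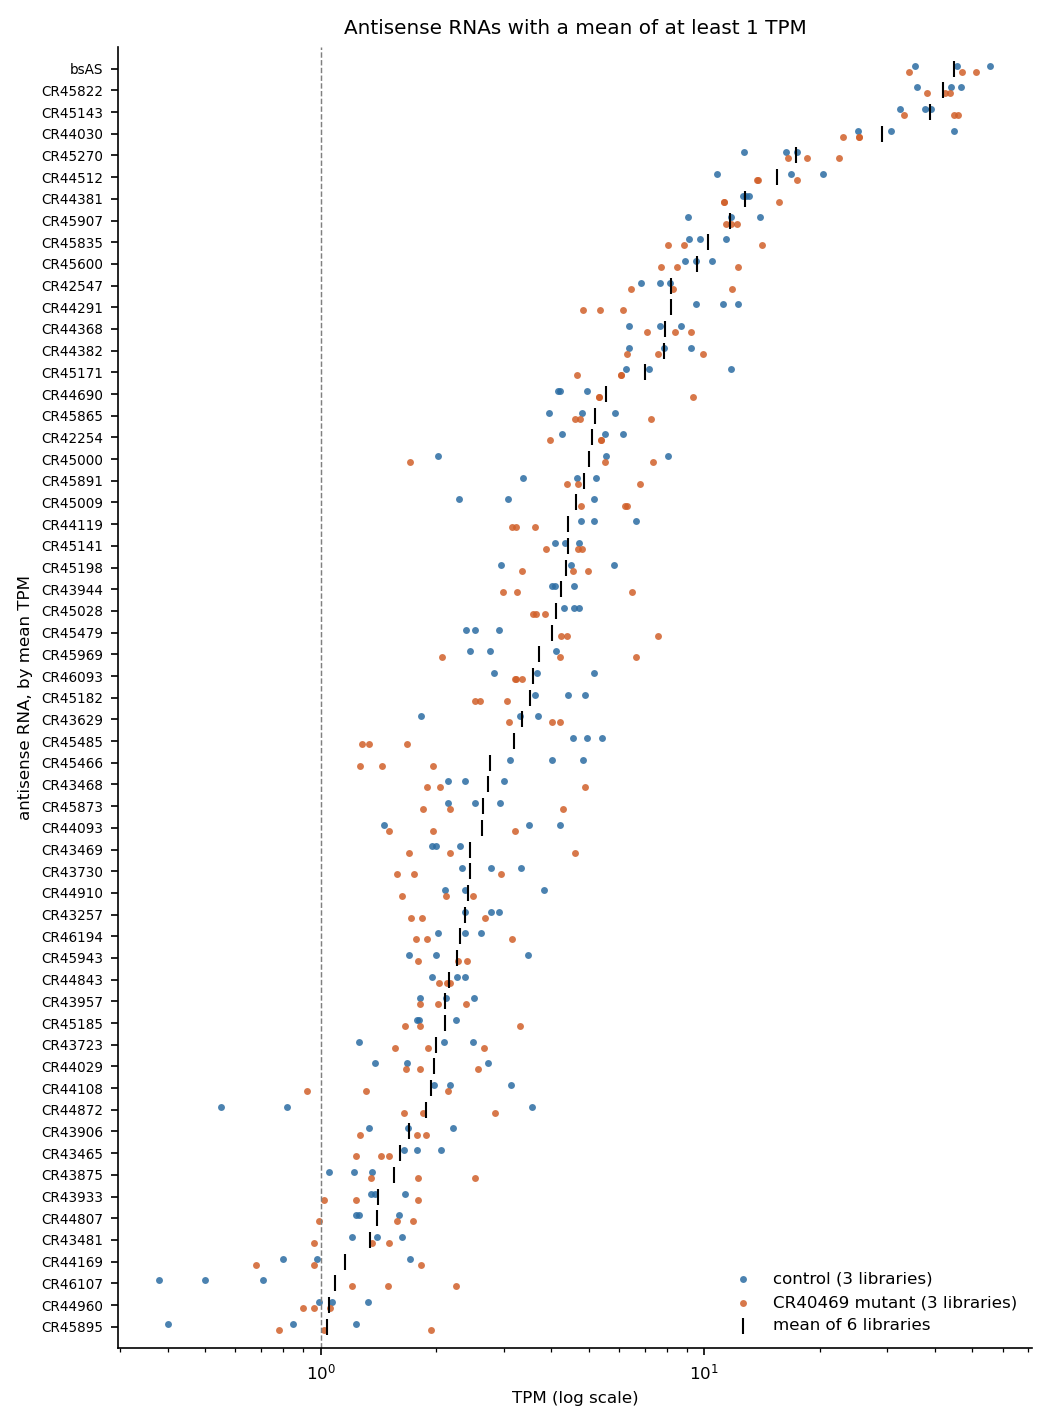
Level of each of the 59 antisense RNAs in every library (horizontal axis, TPM on a log scale), ordered from the highest mean at the top. Blue points are the 3 libraries labelled control, orange points the 3 labelled mutant, black ticks the mean of 6, and the dashed line the limit of 1 TPM. Means span 1.04 to 44.9 TPM, and in 48 of the 59 rows the colours overlap.

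The most abundant antisense RNA was *bsAS*, also known as CR44811 (chromosome 2R, 24351477 to 24369689, minus strand of dm6). It lies inside *blistered* (*bs*), which encodes the fly serum response factor and is needed for intervein fate in the wing. Its levels were 35.46, 55.78 and 45.57 TPM under the control label and 34.31, 51.21 and 47.16 TPM under the mutant label. *bs* itself was at 17.6, 33.84 and 21.7 TPM and at 28.47, 26.32 and 25.41 TPM. The antisense RNA was thus above its sense gene in all 6 libraries, and the groups overlapped for both. It was the only member that shared no exon base with its partner in the annotation used here. Of the other antisense RNAs that the study's text names, CR44892 is listed at 0 in every library and CR44084 bears the prefix lncRNA: instead, so neither is a member.

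Next in level was CR45822, inside *CTCF*, which encodes an insulator protein that binds DNA. It ranged from 35.87 to 46.72 TPM under the control label and from 38.22 to 43.82 TPM under the mutant label, and *CTCF* had a mean of 32.9 TPM. Only 5041 bp away lies another of the 10 highest, CR45835, inside *Sec63*, a component of protein import into the endoplasmic reticulum. CR45835 had a mean of 10.2 TPM beside 115 TPM for *Sec63*. CR45143, head to head with the RNA-binding splicing regulator *fusilli* (*fus*), had a mean of 38.8 TPM, near the 40.0 TPM of its sense gene. CR44512, head to head with *Zw*, the glucose-6-phosphate dehydrogenase gene, had 15.5 TPM against 20.1 TPM. CR45907 had 11.7 TPM beside 73.2 TPM for *Tailor*, which encodes a terminal uridylyltransferase. These 6 lie over genes that the disc also expresses.

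The remaining 4 of the 10 highest lie over genes that were nearly silent. CR44030, on the small chromosome 4, was at 44.92, 25.2 and 30.77 TPM under the control label and at 23.0, 25.38 and 25.35 TPM under the mutant label, while its sense gene *fuss*, a Ski/Sno family gene, stayed between 0.02 and 0.29 TPM. CR45270 had a mean of 17.3 TPM and its main partner *Dhit* 0.0417 TPM. The same antisense RNA also shares 520 exonic bp with *grainyhead* (*grh*), a transcription factor gene of epithelia, which had 76.3 TPM. CR44381 over *CG14054* had a mean of 12.8 TPM, and CR45600 spanning *CG3984* had 9.57 TPM, with sense genes at 0.247 and 0.0200 TPM. For the 10 highest members, log2 fold changes of mutant over control lay between -0.40 and 0.29, all groups overlapped, and the lowest adjusted p was 0.818 (limma on log2(TPM + 1), Benjamini-Hochberg adjustment over 8051 genes).

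Most members shared exons with a gene on the other strand. An opposite-strand protein-coding gene lay over all 59, and in 58 the exons of both overlapped. By the annotation nearly all antisense RNAs do so: of the 490, such a gene lay over 486, and in 482 the exons overlapped. A median of 56.1% of the member's exonic bases was shared, and 5 members had every exonic base inside exons of the sense gene. In 19 pairs the antisense RNA lay inside the sense gene, in 19 the pair was head to head (5′ ends overlapping), in 12 tail to tail (3′ ends overlapping), and in 9 the antisense RNA spanned the sense gene. Of all annotated antisense RNAs, 7.63% of those inside, 13.2% of those head to head, 22.2% of those tail to tail and 23.1% of those spanning the gene reached 1 TPM. By chromosome, the share was 40.0% on chromosome 4 (4 of 10), 18.8% on X (13 of 69), 15.8% on 2R (15 of 95), 13.1% on 3L, 7.56% on 3R and 4.44% on 2L (4 of 90). These shares were not tested, since level was the rule. Exonic lengths ran from 223 to 6039 bp with a median of 1078 bp, against 888 bp for the antisense RNAs under the limit, and 22 members had a single exon. In 13, more than 1 protein-coding gene lay on the opposite strand. In 9, exons also overlapped those of a protein-coding gene on the same strand, and reads of the shared part are uncertain whatever the counting. That part ran from 0.22% of the exonic bases in CR43906 to 100% in CR44872.

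Across pairs with both genes at 1 TPM or more, the level of an antisense RNA did not follow that of its sense gene. The sense gene had a mean of at least 1 TPM in 44 pairs, with a median of 41.2 TPM among them. Over these 44 pairs, the Spearman correlation of the log2 mean levels was -0.01 and the Pearson correlation -0.01. This is a description across genes that share the same 6 libraries and, in nearly all pairs, exon sequence. The limit of 1 TPM on both genes also narrows the range over which their levels could follow each other. The antisense RNA stood at a median of 8.96% of its sense gene, and in 25 of the 44 below 10%. It was above the sense gene in 5. The highest ratios were 354% for CR44119 over *SLC5A11*, a solute transporter gene at only 1.25 TPM, 240% for CR45479 over *Cyp4d14* and 176% for *bsAS* over *bs*. The lowest were 0.324% for CR45969 over *Arf1*, a GTPase gene of vesicle traffic at 1145 TPM, 0.468% for CR43481 over the small heat shock gene *Hsp67Ba*, and 1.09% for CR46194 over the spliceosomal gene *SmD3*. CR45969 has 61.0% of its exonic bases in exons of *Arf1*, and the part of *Arf1* reads in its level was not tested. CR46194 shares 279 exonic bp with *SmD3* and 362 bp with *Oda* on its own strand, a gene at 706 TPM. The part of *Oda* reads in the level of CR46194 was not tested either.

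In the other 15 pairs the sense gene was under 1 TPM, and in 3 of them it was listed at 0 throughout. Among these silent sense genes were genes of neurons, cuticle and transport: *Lk*, the neuropeptide leucokinin, at 0 beside 2.16 TPM for CR44843, *Cpr67Fb*, a cuticle protein gene, at 0 beside 4.67 to 11.75 TPM for CR45171, *Lcch3*, a GABA receptor subunit gene, beside 5.03 TPM for CR45000, and *Balat*, a beta-alanine transporter gene, beside 2.46 TPM for CR43469. CR44843 shares 89 exonic bp with *CG34039* on its own strand, at 51.8 TPM, and the part of those reads in its level was not tested. *Ucp4B*, also at 0 in every library, has the same span as CR43465. All 1167 exonic bp of CR43465 lie in exons of *Ucp4B*, and CR43465 was at 1.24 to 2.06 TPM. How the counting divided reads between the strands was not tested. In 4 of the 15, another opposite-strand gene was at 1 TPM or more. No opposite-strand protein-coding gene at that level lay over the other 11. The expressed sense genes included *Arf1*, *SmD3*, the aspartyl-tRNA synthetase gene *AspRS* at 223 TPM, the insulator gene *BEAF-32* at 142 TPM and *ci*, the transcription factor gene of Hedgehog signalling, at 193 TPM.

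**Figure D2:**
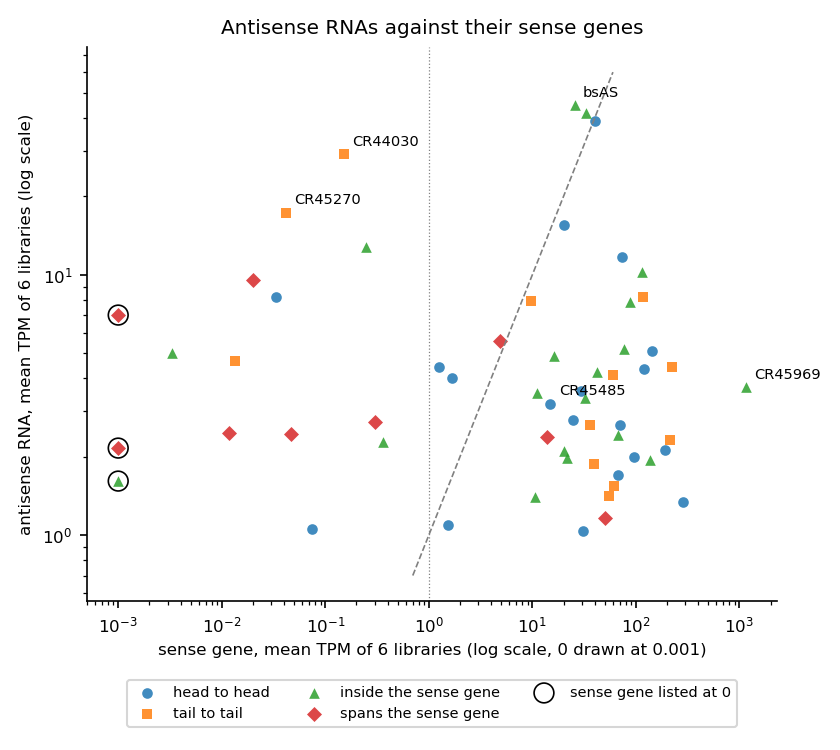
Mean level of each antisense RNA (vertical axis) against its sense gene (horizontal axis), both in TPM of 6 libraries on log scales, with marker shape for the geometry of the pair. The dashed line marks equal levels, the dotted line 1 TPM of the sense gene, and 3 circled sense genes listed at 0 are drawn at the left edge. Of the 44 pairs right of the dotted line, 5 lie above the dashed line.

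Replicates of the low members spread widely. The coefficient of variation within a group had a median of 22.1% over the members, against 14.9% for protein-coding genes and 24.0% for lncRNAs past the same limit. It ran from 4.14% for CR45028 to 65.8% for CR44872. CR44872 was at 0.55, 3.55 and 0.82 TPM under the control label and at 2.85, 1.65 and 1.85 TPM under the mutant label, and all of its exonic bases lie within exons of the same-strand gene *CG5850*, at 24.3 TPM. CR45000 was at 2.02, 8.03 and 5.54 TPM and at 1.71, 7.35 and 5.5 TPM, with replicate 1 low and replicate 2 high in both groups. The same ranking of the replicate numbers in both groups was seen in 11 members, or 18.6%, and in 8.45% of all tested genes. Neither share was tested against that of random orders. Replicate 1 of the mutant label was the highest library in 22 members, or 37.3%, and in 51.9% of all tested genes.

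The comparison of the labels asked whether loss of *CR40469* goes with other levels of antisense RNAs in regenerating discs. A gene was called at an adjusted p under 0.05 and a fold change over 1.7 on the log2(TPM + 1) scale, which understates the change of low genes. Of the 59 members, 1 was called, 1.69%, with 18 of 8051 genes called in all, which is 0.224%. The median log2 fold change of the members was -0.03 and that of all tested genes 0.13, and 51 members lay within 0.5 of 0. For the 140 lncRNAs past the same limit the median was also -0.03, and for the protein-coding genes past it 0.13. Most of the tested genes, 7718 of 8051, were protein-coding, and the shares below were not taken for lncRNAs alone. At an unadjusted p under 0.05 there were 8 members, 3 with higher and 5 with lower values in the libraries labelled mutant, or 13.6% against 4.82% of all genes. In 8 members (13.6%) the libraries labelled mutant were all below those labelled control, against 2.56% of all genes. In 3 (5.08%) they were all above, against 7.90%. With median-ratio scaling of the libraries, these became 9 members below (15.3%, against 4.38% of genes) and 3 above (5.08%, against 3.96%), and the median of the members was -0.12 where that of all genes was near 0. In discs pooled whole, fewer cells that express an RNA and less RNA per cell cannot be told apart.

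The called antisense RNA was CR45485 (FBgn0267041, X, 16307032 to 16308687, plus strand), which lies 16.2 Mb from *CR40469*. It overlaps head to head with *Had1* (X, 16306912 to 16308667, minus strand), a beta-hydroxy acid dehydrogenase gene, and 84.5% of its exonic bases lie in exons of that gene. It had 4.55, 4.95 and 5.42 TPM under the control label, and 1.68, 1.34 and 1.28 TPM under the mutant label. Every mutant-labelled library was below every control-labelled library, with group means of 4.97 ± 0.435 TPM (SD, n = 3) and 1.43 ± 0.216 TPM (SD, n = 3). CR45485 fell by 1.30 on the log2(TPM + 1) scale (standard error, SE, 0.14, limma with Benjamini-Hochberg adjusted p = 0.0119), and its mean TPM was 3.47-fold lower. The call was lost without replicate 1 of the control label (adjusted p = 0.0508), without its replicate 3 (0.116), and without replicate 2 (0.0511) or replicate 3 (0.0837) of the mutant label. An exact permutation test of a single gene cannot go below 0.1 with 3 against 3 libraries.

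*Had1* showed no such separation. It was at 8.51, 16.45 and 14.42 TPM under the control label and at 11.88, 17.91 and 20.61 TPM under the mutant label, with overlapping groups (log2 fold change 0.35, SE 0.27, adjusted p = 0.818). CR45485 stood at 53.5%, 30.1% and 37.6% of *Had1* under the control label and at 14.1%, 7.48% and 6.21% under the mutant label. Its first exon also overlaps the last exon of *CG3679* on its own strand by 346 bp, 22.4% of its exonic bases. *CG3679* was at 31.35, 37.68 and 35.96 TPM and at 49.43, 34.32 and 30.4 TPM, so the groups overlapped in both genes that share exons with CR45485. The RNAs *roX1* and *roX2* of male X dosage compensation, which vary with the share of male discs, summed with *msl-2* to 310 to 493 TPM under the control label and 236 to 375 TPM under the mutant label. The part of the sex of the discs in the levels of this and other X-linked members was not tested.

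**Figure D3:**
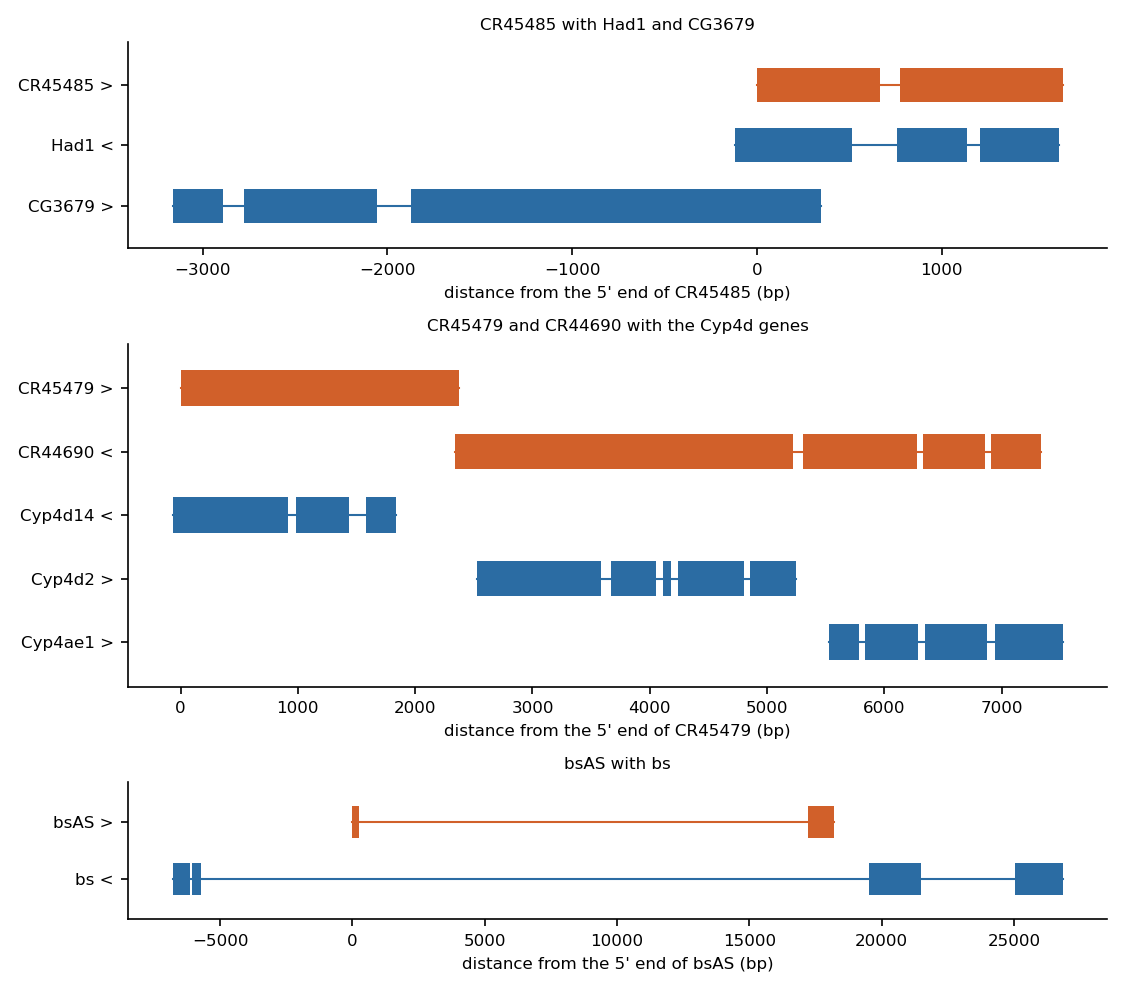
Exons (boxes) and introns (lines) of antisense RNAs in orange and protein-coding genes in blue, drawn by distance in bp from the 5′ end of the first antisense RNA of each panel, with > or < for the direction of transcription. CR45485 overlaps exons of *Had1* and the end of *CG3679*, CR45479 and CR44690 overlap at their 3′ ends by 39 bp, and *bsAS* shares no exon base with *bs*.

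On the log2(TPM + 1) scale, the next members in size had lower values under the mutant label but were not called. By the ratio of mean TPM, the 2.56-fold of CR45466 and the 2.02-fold of CR44291 were smaller than the 3.12-fold of CR46107, which was higher under the mutant label and is described further on. CR44291, tail to tail with *CG31460* on 3R, was at 12.27, 9.51 and 11.17 TPM under the control label and at 5.34, 6.13 and 4.84 TPM under the mutant label (log2 fold change -0.89, SE 0.15, limma adjusted p = 0.0882). Its sense gene was at 109 to 121 TPM and at 98.6 to 130 TPM, so the groups overlapped. CR45466, head to head with the cytochrome P450 gene *Cyp6v1* on X, was at 4.82, 3.12 and 4.02 TPM and at 1.96, 1.27 and 1.45 TPM (log2 fold change -0.96, SE 0.18, adjusted p = 0.114). *Cyp6v1* was at 21.5 to 23.3 TPM and at 22.8 to 33.2 TPM. The ratios to the sense genes hold these same antisense values and are no separate evidence. They were 8.74% to 10.1% against 3.72% to 5.41% for CR44291, without overlap. For CR45466 they were 13.4% to 21.9% against 5.57% to 5.92%, also without overlap. Of the 49 pairs with a ratio in every library, 10 had no overlap, and 8 of these were lower under the mutant label. For both, as for CR45485, the libraries separated by label in the antisense RNA and overlapped in the sense gene.

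Smaller differences without overlap were seen in 5 other members with lower values under the mutant label. CR44119 over *SLC5A11* was at 4.77, 6.64 and 5.16 TPM and at 3.62, 3.15 and 3.24 TPM (log2 fold change -0.58, adjusted p = 0.429). CR45182, inside the long gene *l(3)80Fg*, was at 4.42, 3.63 and 4.9 TPM and at 2.6, 3.07 and 2.53 TPM (log2 fold change -0.51, adjusted p = 0.549). CR45171 over the silent *Cpr67Fb* had a log2 fold change of -0.47, CR43465 over the silent *Ucp4B*, a mitochondrial carrier gene, of -0.24, and CR45028 over *CG31229* of -0.23, all with adjusted p of 0.818. *SLC5A11*, *l(3)80Fg* and *CG31229*, the sense genes at 1 TPM or more among these, overlapped between labels.

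Higher values under the mutant label, without overlap, were found in 3 members, and each of them lay over a gene with the same direction. CR45479 and CR44690 are neighbours on X, 2.05 Mb from *CR40469*, transcribed towards each other over a cluster of cytochrome P450 genes. CR45479 was at 2.92, 2.4 and 2.52 TPM under the control label and at 7.58, 4.4 and 4.23 TPM under the mutant label (log2 fold change 0.79, SE 0.21, limma adjusted p = 0.420), and its sense gene *Cyp4d14* at 1.03, 1.29 and 0.88 TPM and at 3.12, 1.64 and 2.08 TPM (0.65, adjusted p = 0.537). CR44690 was at 4.2, 4.96 and 4.17 TPM and at 9.38, 5.31 and 5.33 TPM (0.46, adjusted p = 0.818), and its sense gene *Cyp4d2* at 3.85, 2.79 and 2.97 TPM and at 9.16, 5.12 and 5.14 TPM (0.80, adjusted p = 0.485). In all 4 genes, replicate 1 of the mutant label was the highest library. Without it, the log2 fold changes were 0.56 for CR45479, 0.47 for *Cyp4d14*, 0.22 for CR44690 and 0.55 for *Cyp4d2*. CR44690 also covers *Cyp4ae1*, which stayed at 0.04 to 0.12 TPM. The exons of these genes are shared across strands over 1629 bp for CR45479 and 2436 bp for CR44690, so whether the like values come from both strands was not tested.

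The third was CR46107 on 3R, head to head with *CG11843*, a predicted serine protease gene. It was at 0.5, 0.38 and 0.71 TPM under the control label and at 2.25, 1.21 and 1.5 TPM under the mutant label (log2 fold change 0.78, SE 0.18, limma adjusted p = 0.277). *CG11843* was at 1.04, 1.14 and 0.97 TPM and at 2.29, 1.98 and 1.76 TPM (0.55, adjusted p = 0.342). The antisense RNA and its sense gene share 84.2% of the exonic bases of the former. Tracheal markers also separated by label, with a sum of 302 to 347 TPM for the 4 genes under the control label and 377 to 471 TPM under the mutant label, and their part in these differences was not tested.

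**Figure D4:**
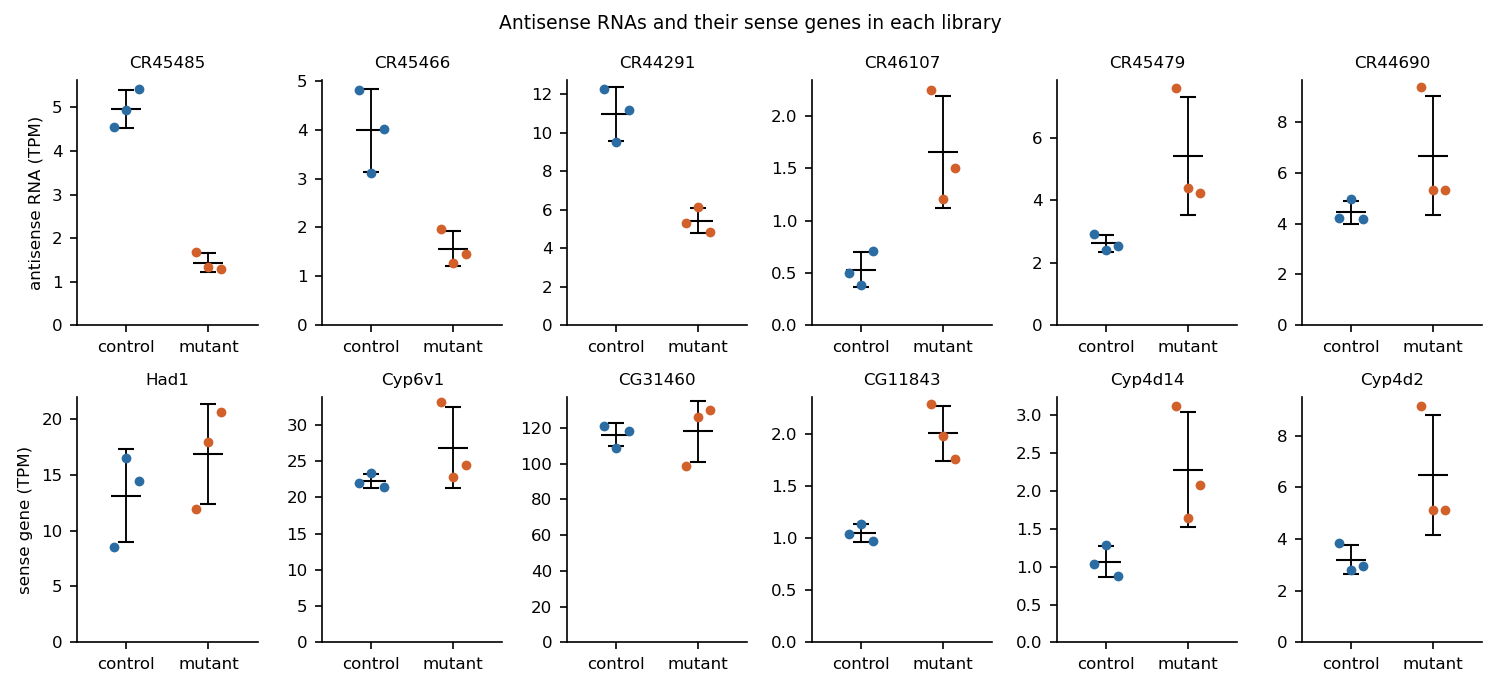
TPM in each library for 6 antisense RNAs (top) and their sense genes (bottom), with points for the 3 libraries of each label and black bars for mean and SD. In the first 3 columns the antisense RNA lies lower under the mutant label while the sense gene overlaps between labels, and in the last 3 columns both lie higher under the mutant label, most of all in replicate 1.

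None of the sense genes was called by limma. Of the 59, 44 were tested, and their log2 fold changes ran from -0.28 to 0.91 with a median of 0.14, near the 0.13 of all tested genes. At an unadjusted p under 0.05 there were 4 of the 44 (9.09%, against 4.82% of all genes tested): *CG11843*, *Cyp4d2*, *Cyp4d14* and *unc-13*, a gene of synaptic vesicle release. On the log2(TPM + 1) scale *unc-13* had the largest difference of the 44, while by the ratio of mean TPM it was 1.98-fold higher under the mutant label, below *Cyp4d14* at 2.14-fold and *Cyp4d2* at 2.02-fold. *unc-13* was at 13.57, 18.05 and 12.16 TPM under the control label and 40.34, 23.43 and 23.1 TPM under the mutant label (limma log2 fold change 0.91, adjusted p = 0.442). Its antisense RNA CR44029 was at 2.74, 1.39 and 1.68 TPM and at 2.57, 1.67 and 1.82 TPM (log2 fold change 0.06). Over the 44 pairs, the Spearman correlation of the antisense and sense log2 fold changes was 0.11 and the Pearson correlation 0.20. This is a description over pairs that share libraries and may share reads.

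**Figure D5:**
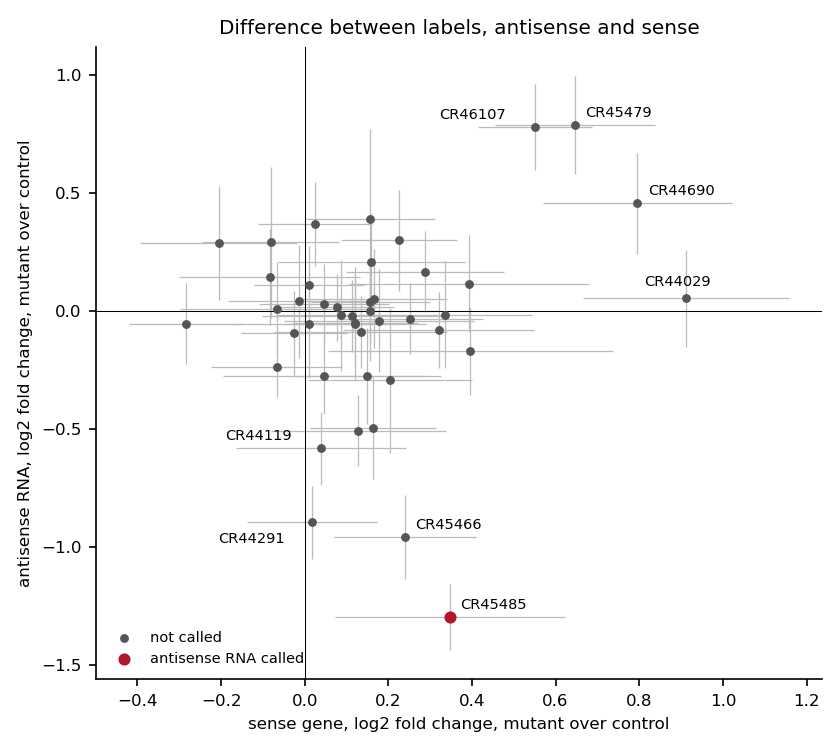
Log2 fold change of mutant over control label for 44 antisense RNAs (vertical axis) and their sense genes (horizontal axis), from log2(TPM + 1), with standard errors as grey lines. The single called member, CR45485, is in red at -1.30 with *Had1* at 0.35, and most pairs lie near the origin.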

How the data were processed

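RNA-seq data of wing discs were taken as deposited. The authors aligned paired reads to dm6 with STAR 2.4.0j in the grape-nf pipeline and quantified the FlyBase genes with RSEM 1.2.21, and the deposited files hold TPM per gene and library, to 2 decimals. They hold no counts, so no counting error can be given. Symbols, exons and strands came from Ensembl release 115 and the FlyBase name table, which differ from the annotation release of the authors. Of 16455 gene identifiers, 16402 matched, and 490 of 503 asRNA: symbols were found. The sense gene is the opposite-strand protein-coding gene that shares most bases of the span. Genes that reached 1 TPM in any library entered a limma 3.58.1 fit (R 4.3.3) on log2(TPM + 1), with the label as the only term and Benjamini-Hochberg adjustment. The fit was tested on simulated data. Members and lists were chosen with earlier results of these data known. Genes named by rule are those called, the 10 most abundant, the 5 with the largest positive and negative differences without overlap, those nearest the limit, the 3 highest and lowest ratios, antisense RNAs the study names, and their sense genes. *grh*, CR44872, CR45000, CR44029, *unc-13* and the further sense genes were picked outside that rule with their values in view. Alternatives were another pseudocount, other filters, other scaling, a mean-variance trend, no fold limit, the replicate number as a block, other level limits and each library left out. No sequence is shown.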

Additional observations from a re-analysis of the deposited data

How the results depend on the processing

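Under another pseudocount, other filters, median-ratio scaling, a mean-variance trend or no fold limit, CR45485 stayed the 1 antisense RNA called, with log2 fold changes from -1.73 (pseudocount of 0.1) to -1.30. When single libraries were left out, the number of antisense RNAs called ranged from 0 to 1, and the adjusted p of CR45485 over all alternatives ranged from 0.00506 to 0.116. Its direction held throughout. CR44291 ranged from 0.0841 to 0.482 and CR45466 from 0.0696 to 0.514, never called. No sense gene was called under any alternative. Calls over all genes numbered 18, and between 6 (without replicate 1 of the control label) and 35 (without replicate 1 of the mutant label) elsewhere. With the replicate number as a block, 1 antisense RNA (CR45485, adjusted p = 0.0273) and 31 genes were called. The deviations of same-numbered libraries correlated at -0.03, -0.35 and 0.16, so the numbers were not taken to pair the libraries. The median log2 fold change of the antisense RNAs ranged from -0.12 (median-ratio scaling) to 0.03. A limit of 0.5 TPM gave 87 antisense RNAs and one of 2 TPM gave 45, and leaving out a library gave 59 to 61. Of the members, 14 lie between 1 and 2 TPM, where a change in a few reads moves the level, and TPM do not show how many reads stand behind them.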

Other observations

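Several antisense RNAs stood high in a single library, chosen here after their values were seen. CR43469 and CR43468 are neighbours on the plus strand of 2R, over *Balat* and *Lfg*, which had means of 0.01 and 0.30 TPM. CR43469 was at 4.62 TPM in replicate 1 of the mutant label and at 1.7 to 2.31 TPM in the other libraries. CR43468 was at 4.89 TPM in that library and at 1.9 to 3.0 TPM in the others. CR43944, inside the pantothenate kinase gene *fbl* on 3L, was at 6.5 TPM there and at 2.99 to 4.59 TPM elsewhere. CR45969 over *Arf1* was instead highest in replicate 2 of the mutant label, at 6.65 TPM, and at 2.07 to 4.21 TPM elsewhere. The scaling factor of replicate 1 of the mutant label was 1.16, and those of the other libraries were 0.882 to 1.03. CR45009, over the silent *FucTC*, had the largest difference among members whose groups overlapped, with 2.3, 3.08 and 5.17 TPM under the control label and 4.79, 6.31 and 6.23 TPM under the mutant label (log2 fold change 0.63, limma adjusted p = 0.818).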
